A study of Mus musculus with 8 samples.

Results

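Collagens are proteins of the extracellular matrix in which 3 polypeptide chains wind into a triple helix, and each chain is encoded by its own gene. The collagen chain genes were taken as the protein-coding rows of the gene table whose symbol is Col, a number, the letter a and a number, a rule that uses no measured value. There were 36 of them among 18768 genes, and 30 passed the filter on low counts that left 15153 genes for testing. The members known by name that are not in the table (Col9a1, Col9a2, Col4a5, Col4a6, Col6a6, Col10a1, Col13a1 and Col26a1) were not analysed here.

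RNA was sequenced from 4 mouse fibrosarcoma lines in 8 libraries, 2 per line. MC010 and MC011, labelled IRF8 KO (knockout of interferon regulatory factor 8, a transcription factor), came from tumors of IRF8 KO mice, and MC654 and MC659, labelled WT, came from tumors of wild-type C57BL/6 mice. All 4 tumors had been induced by a subcutaneous injection of methylcholanthrene (MCA), a chemical carcinogen, and were digested with collagenase, an enzyme that cuts collagen, before the cells were cultured to stable lines, kept in RPMI medium with serum. The age of the mice is not given in the sources used here. Each line stands for 1 tumor, so that the labels are compared over 2 lines against 2, and nothing says whether the 2 libraries of a line came from separate cultures. The p-values between lines therefore measure the spread between libraries of a line, which may be technical. Those between the labels treat the 8 libraries as separate, and their spread also holds the differences between the lines of a label.

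The libraries held between 74063616 and 116206078 counts. Irf8, the targeted gene, had 442 and 347 counts in MC010, 32 and 10 in MC011, 1 and 2 in MC654, and 1 and 0 in MC659, which goes against the labels, so the lines are called by their labels throughout. By PCR on genomic DNA, the study typed MC654 and MC659 as WT and MC010 and MC011 as IRF8 KO, as labelled. A count over the whole gene does not show whether the reads lie in the deleted part. Vim, a defining gene of mesenchymal cells, stood at 4532 to 7384 CPM in all libraries, with a summed level of the 7 mesenchymal markers, all in the table, of 8095 to 8785 CPM (counts scaled to library size by edgeR's TMM method) in the IRF8 KO label and 12470 to 13180 CPM in the WT label. The 4 hematopoietic markers in the table summed to 5.72 to 7.38 CPM against 9.67 to 11.4, the 5 endothelial markers to 0.874 to 2.25 CPM against 0.465 to 0.682, and the 4 epithelial markers to 0.313 to 2.34 CPM against 0.271 to 0.611. Ptprc, which defines leukocytes, had 0 counts in MC011, 13 and 18 in MC010, and 1 or 2 in the WT label. The mesenchymal sum was mostly Vim and Fn1 (fibronectin), of which Fn1 had 1142 to 2112 CPM against 7779 to 8132 and was called lower, whereas Vim was higher in each library of the IRF8 KO label and the markers Pdgfra, S100a4 and Thy1 were called higher. The hematopoietic sum was mostly Cd68, at 5.25 to 6.74 CPM against 8.25 to 10.1. Of the endothelial markers, Tie1 (32 to 170 counts in the IRF8 KO label, 0 in the WT label) and Tek were called higher. Pecam1 and Cdh5 were not called between the labels but were called lower in MC011 against the WT lines. The part of these markers in the collagen results was not tested.

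Fibrillar collagens such as types I, III and V form the banded fibers of connective tissue and are a main product of fibroblasts. Type IV collagen forms the network of basement membranes, the sheets under epithelia and around vessels, and type VI forms beaded microfilaments around cells. The FACIT collagens (fibril-associated collagens with interrupted triple helices) sit on the surface of fibers, the transmembrane collagens span the plasma membrane, and types XV and XVIII, the multiplexins, are proteoglycans of basement membrane zones. Because chains of 1 type assemble in fixed combinations, the ratio between the RNAs of partner chains is described beside their levels. Protein was not measured.

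Upstream sequences are shown first for 3 genes on which the results turn, namely Col18a1 and Col27a1, far higher in both lines labelled IRF8 KO, and Col6a3, in which these lines part. They are from RefSeq on GRCm38.p6, read on the strand of the gene from 5′ to 3′ and ending at or just before its start, and only bases outside annotated exons are printed. Capitals mark CCAAT boxes (CCAAT) and GC boxes (GGGCGG) on either strand, elements that many promoters share. The Col18a1 stretch is chr10:77166549-77166780 on the minus strand, the Col27a1 stretch is chr4:63215162-63215411 on the plus strand and lies within the longer annotated gene but in no exon, and the Col6a3 stretch is chr1:90843972-90844221 on the minus strand.
Col18a1: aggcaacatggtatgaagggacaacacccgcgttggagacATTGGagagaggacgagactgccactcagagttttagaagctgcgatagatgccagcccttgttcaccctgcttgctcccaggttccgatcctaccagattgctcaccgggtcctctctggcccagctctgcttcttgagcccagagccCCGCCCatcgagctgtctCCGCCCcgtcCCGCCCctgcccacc
Col27a1: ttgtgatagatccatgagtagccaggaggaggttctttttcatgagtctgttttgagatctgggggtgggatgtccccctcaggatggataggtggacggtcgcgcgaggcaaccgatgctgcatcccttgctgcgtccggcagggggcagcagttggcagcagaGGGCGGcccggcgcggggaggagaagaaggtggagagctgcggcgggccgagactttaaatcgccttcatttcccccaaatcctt
Col6a3: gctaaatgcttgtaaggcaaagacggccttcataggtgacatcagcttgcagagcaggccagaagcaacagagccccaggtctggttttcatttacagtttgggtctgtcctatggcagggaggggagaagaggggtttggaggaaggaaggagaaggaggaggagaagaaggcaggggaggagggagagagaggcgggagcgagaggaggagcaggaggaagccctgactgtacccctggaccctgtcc

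Of the 3 stretches, Col18a1 has 3 GC boxes and 1 CCAAT box, Col27a1 has 1 GC box, and Col6a3 has neither. Col18a1 has another start at chr10:77113705, whose window held only 9 bases before an annotated exon and is not printed. A count per gene does not show which start was used. Over the 250 bases before the start, the GC box was found in 60.0% of the 30 windows of 28 collagen genes and in 32.7% of all 32851 windows. The CCAAT box was found in 36.7% against 33.8%, and the TATA box (TATAAA) in 10.0% against 12.4%. The composite element to which IRF8 can bind with an ETS partner (GGAA, 2 bases of any kind, then GAAA) was in 2.3% of all windows and 0.0% of the collagen windows, which says only that these letters are not there. A match is a description of letters and not a binding site.

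Col4a1 and Col4a2, the main chains of type IV collagen, start head to head on opposite strands of chromosome 8, and their annotated first exons share 22 bases at chr8:11312805-11312826. This shared stretch, read on the plus strand with its GC box in capitals, is shown because both annotated genes start at its ends and run through it. The ratio of the 2 RNAs is given below.
Col4a1 and Col4a2: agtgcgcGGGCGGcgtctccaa

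Collagen genes together took 0.388% and 0.369% of all counts in MC010, 0.552% and 0.528% in MC011, 0.379% and 0.348% in MC654, and 0.464% and 0.488% in MC659. The 2 lines of a label differed more from each other than the labels did, and the 4 libraries of one label overlapped those of the other. The 95% Wilson intervals of these shares were 0.00226 to 0.00323 percentage points wide, and they cover counting error only.

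**Figure D1:**
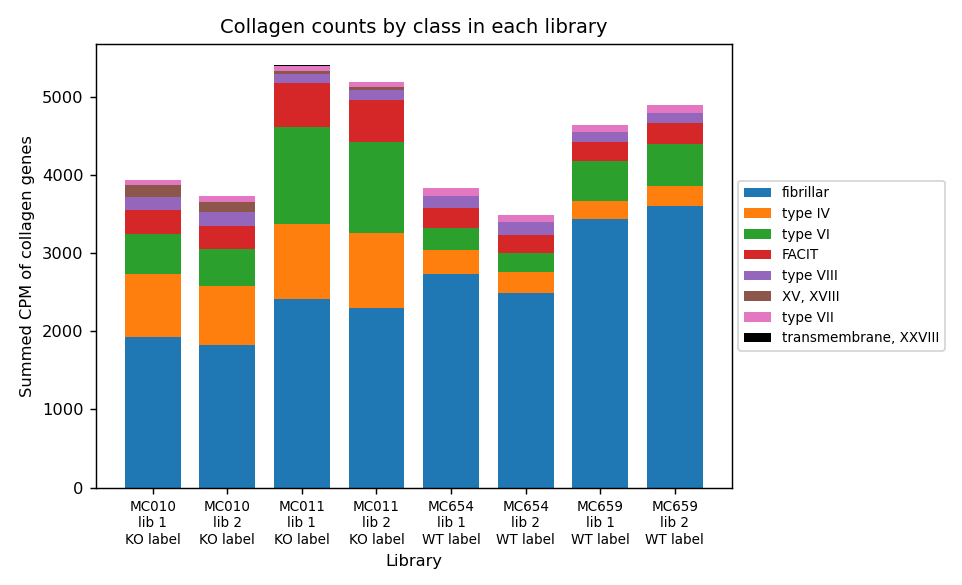
Summed CPM of the collagen genes in each of the 8 libraries (bars, from 0), split by class of collagen. The fibrillar part is lower and the type IV part higher in the 4 libraries of the IRF8 KO label, and the total is highest in the 2 libraries of MC011.

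The makeup of the collagen RNA differed more than its amount. Fibrillar genes held 44.3% to 48.9% of the collagen CPM in the IRF8 KO label and 71.2% to 74.1% in the WT label. Type IV genes held 17.8% to 20.6% in the IRF8 KO label and 4.96% to 7.93% in the WT label. Type VI genes held 12.6% and 13.0% in MC010, 22.5% and 22.9% in MC011, and 7.14% to 11.1% in the WT label, and the multiplexins held 0.692% to 3.75% against 0.0607% to 0.0809%. In share of the collagen CPM, the libraries of the labels did not overlap for any of these 4 classes. Nor did they for the FACIT, type VII and transmembrane genes or Col28a1, while type VIII overlapped. Shares are parts of a whole, so a lower share of one class raises those of others. In summed CPM, type VI overlapped between the labels, at 513 and 468 in MC010 and 513 and 535 in MC659. The fibrillar sums were 2412 and 2300 CPM in MC011 and 2736 and 2483 in MC654. In bulk RNA, fewer cells of a kind and less RNA per cell cannot be told apart.

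Between the labels, 11 collagen chains were higher and 3 lower in the IRF8 KO label of the 30 tested, by edgeR's quasi-likelihood test at a Benjamini-Hochberg adjusted p under 0.05 and a log2 fold change beyond 0.59 in either direction. Over all genes tested, 13.7% were called higher and 8.72% lower. The median log2 fold change of the 30 chains was 0.47, and that of all genes was 0.02. The higher chains were Col4a1 and Col4a2 of type IV, Col6a1, Col6a2, Col6a4 and Col6a5 of type VI, Col18a1, Col12a1, Col17a1, Col23a1 and Col27a1, and the lower chains were Col5a2, Col5a3 and Col28a1. For 21 of the 30 chains tested, these 14 among them, each line of the IRF8 KO label lay on the same side of each line of the WT label, as it did for 57.8% of all genes. In CPM, the 4 libraries of each label did not overlap for 11 chains that were higher and 5 that were lower, against 22.1% and 20.5% of all genes. When the counts of a line's 2 libraries were summed, so that 2 lines stood against 2, edgeR called 0 chains and 0 genes in all, and 11 of 33 chains were higher and 2 lower at an unadjusted p under 0.05, where 12.8% and 8.78% of all genes were. With the line as a random block in limma-voom, 6 of the 30 chains were called higher and 2 lower, where 6.91% and 5.54% of all genes were.

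**Figure D2:**
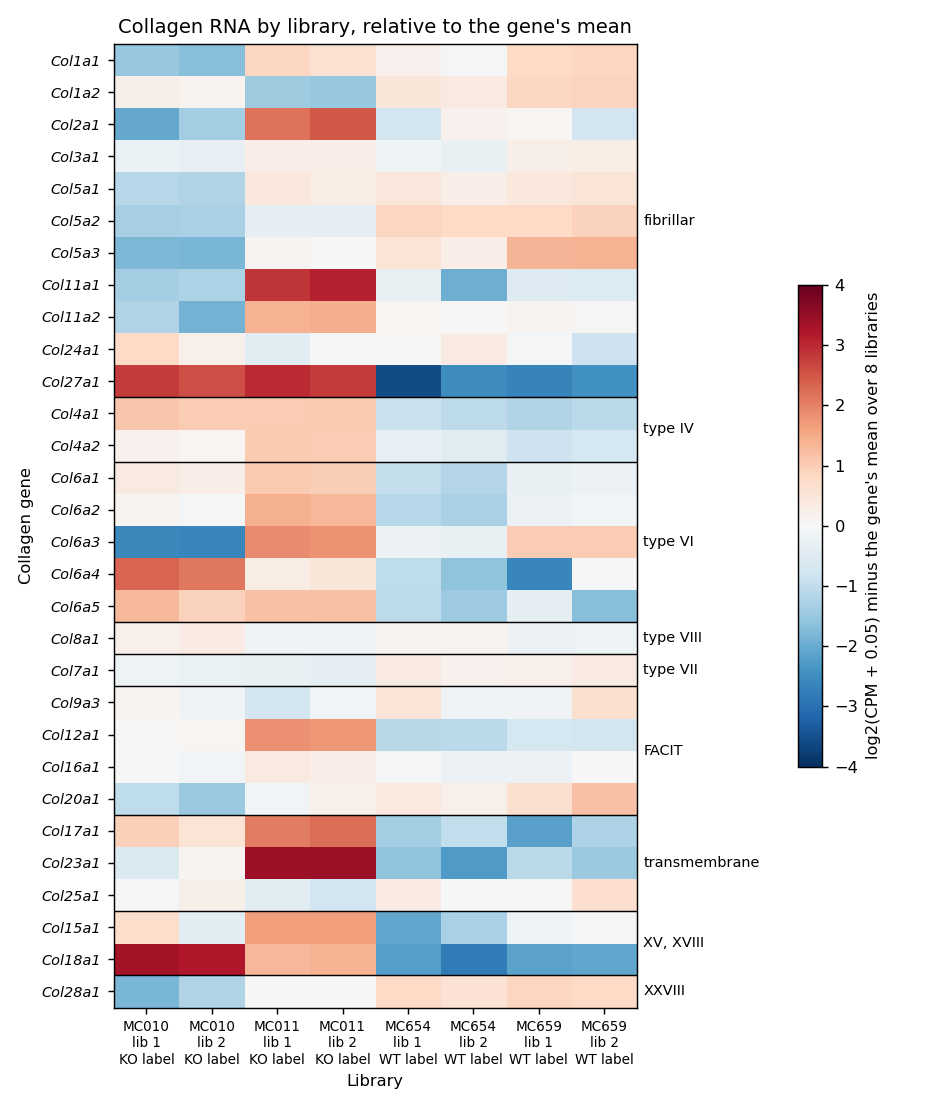
Each row is 1 of the 30 collagen genes that passed the filter, grouped by class, and each column 1 library. Color gives log2(CPM + 0.05) minus the gene's mean over the 8 libraries, and the 2 libraries of a line look alike for most genes (not for Col6a4 in MC659), while MC010 and MC011 share the red of Col4a1, Col18a1 and Col27a1 but part at Col6a3, Col1a1 and Col2a1.

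Col4a1 of type IV collagen had the smallest adjusted p between the labels among the 30 chains. The gene (chr8:11198423-11312826, minus strand) stood at 589.6 and 553 CPM in MC010, 552 and 555 in MC011, 146 and 132 in MC654, and 118 and 127 in MC659. All 4 libraries of the IRF8 KO label thus lay close together and far above the WT label. The log2 fold change was 2.10 (SE 0.07, adjusted p = 2.42e-06 by edgeR), and MC010 and MC011 differed by 0.05 (SE 0.05, adjusted p = 0.477). Leaving out each line in turn gave adjusted p-values of at most 0.000271.

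Col4a2 (chr8:11312805-11449287, plus strand), the partner chain, reached 223 and 209.6 CPM in MC010 but 413 and 400.0 in MC011, with 158 and 141 in MC654 and 112 and 123 in MC659. The labels did not overlap, yet the lines of the IRF8 KO label were well apart. It was higher by a log2 fold change of 1.22 (SE 0.25, adjusted p = 0.00655 by edgeR, and 0.104 with MC659 left out), and MC010 minus MC011 was -0.91 on the log2 scale (SE 0.06, adjusted p = 3.18e-09).

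Per kilobase of mRNA, the ratio of Col4a1 to Col4a2 counts was 2.58 in MC010, 1.33 in MC011, 0.906 in MC654 and 1.02 in MC659. The type IV collagen of most basement membranes holds both chains, and the ratio of Col4a1 RNA to its partner's was largest in MC010. These ratios were not tested. Of the other chains of this class, Col4a4 had 37 and 22 counts in MC010 and 0 to 6 elsewhere, and Col4a3 had 16 and 6 counts in MC010 and 0 to 6 elsewhere, both under the filter. These 2 genes also lie head to head, 71 bases apart on chromosome 1.

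Type VI collagen is built of the chains of Col6a1 and Col6a2 with one long chain, most often that of Col6a3. Col6a1 was at 375 and 346 CPM in MC010, 598 and 574 in MC011, 149 and 130 in MC654, and 236 and 248 in MC659. Col6a2 was at 119 and 104 CPM in MC010, 295 and 274 in MC011, 49.6 and 45.2 in MC654, and 94.4 and 102 in MC659. Both were lowest in MC654 and highest in MC011, and for Col6a2 the libraries of MC010 were only just above those of MC659. Their log2 fold changes between the labels were 1.31 (SE 0.27, adjusted p = 0.00701 by edgeR) for Col6a1 and 1.45 (SE 0.43, adjusted p = 0.0310) for Col6a2. The call of Col6a1 was lost without MC654 (adjusted p = 0.0649). The call of Col6a2 was lost without either library of MC011 (0.0652 and 0.0658), without either library of MC654 (0.0848 and 0.0825) and without the first of MC659 (0.0519).

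Col6a3 (chr1:90765923-90843971, minus strand) did not follow its partners. It had 15.1 and 15.0 CPM in MC010, 342 and 316 in MC011, 77.9 and 74.1 in MC654, and 183 and 184 in MC659. The line with the lowest and the line with the highest level carry the same label, and the WT lines lay between them. The difference of MC010 minus MC011 was -4.45 on the log2 scale (SE 0.06, adjusted p = 4.8e-17 by edgeR), while the difference between the labels was 0.41 (SE 1.01, adjusted p = 0.785). The ratio of Col6a3 to Col6a1 counts per kilobase was 0.0169 in MC010 against 0.227 in MC011, 0.222 in MC654 and 0.308 in MC659, which puts MC011 at 13.4 times MC010.

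The lesser-known long chains of type VI, Col6a4 and Col6a5, were at low levels. Col6a4 had 2.51 and 2.16 CPM in MC010, 0.570 and 0.671 in MC011, 0.204 and 0.118 in MC654, and 0.0340 and 0.456 in MC659, so the 2 libraries of MC659 disagreed (3 and 41 counts). Its log2 fold change was 2.86 (SE 0.80, adjusted p = 0.0246 by edgeR), and the call was lost without either library of MC010 (0.0548 and 0.0509) or of MC654 (0.0665 and 0.0732). Col6a5 had 24 to 51 counts in each library of the IRF8 KO label and 1 to 9 in the WT label, a log2 fold change of 3.06 (SE 0.54, adjusted p = 0.00310, and 0.0704 without MC654). MC010 minus MC011 was 1.92 on the log2 scale for Col6a4 (SE 0.49, adjusted p = 0.00302), the opposite direction from Col6a3.

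Col18a1 (chr10:77052178-77166548, minus strand) encodes the type XVIII chain, whose C-terminal fragment is endostatin. The gene had 147 and 134 CPM in MC010, 36.7 and 38.1 in MC011, 3.10 and 2.08 in MC654, and 3.30 and 3.39 in MC659. Both lines of the IRF8 KO label were far above the WT label, and MC010 was above MC011 by 1.91 on the log2 scale (SE 0.09, adjusted p = 3.15e-11 by edgeR). The log2 fold change between the labels was 4.91 (SE 0.57, adjusted p = 0.000461), and it stayed past the thresholds with any line left out (adjusted p at most 0.0206). Its relative Col15a1 had 8 to 60 counts in the IRF8 KO label and 0 to 14 in the WT label, with a log2 fold change of 2.30 (SE 0.89, adjusted p = 0.0746).

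Col27a1 (chr4:63214004-63334991, plus strand), a fibrillar chain known from cartilage, was close to absent from the WT label. It had 10.0 and 8.60 CPM in MC010 and 11.4 and 10.2 in MC011, and 0.0719, 0.212, 0.181 and 0.222 CPM in the 4 libraries of the WT label, which are 6 to 20 counts each. The log2 fold change was 5.86 (SE 0.35, adjusted p = 1.98e-05 by edgeR), and MC010 and MC011 differed by -0.21 (SE 0.14, adjusted p = 0.218). Leaving out each line gave adjusted p-values of at most 0.00248. This was the largest log2 fold change between the labels among the 30 chains.

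Of the other 10 fibrillar chains, Col5a2 and Col5a3 were called between the labels, both lower. Type V collagen is a minor partner that starts and limits the growth of type I fibers. Col5a2 (chr1:45374321-45503282, minus strand) had 48.7 and 49.8 CPM in MC010, 92.4 and 94.9 in MC011, 223 and 211 in MC654, and 210.5 and 230.1 in MC659. The WT lines lay close together, and both lines of the IRF8 KO label lay below them, with a log2 fold change of -1.61 (SE 0.24, adjusted p = 0.00143 by edgeR, at most 0.0278 with a line left out). Col3a1, which lies 24614 bases from Col5a2 in tail-to-tail order, did not follow it (log2 fold change -0.01, SE 0.19, adjusted p = 0.974).

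Col5a1, the chain that pairs with Col5a2, had 117 and 111 CPM in MC010, 344 and 314 in MC011, 348 and 309 in MC654, and 340.2 and 365 in MC659. Only MC010 stood apart, by -1.57 on the log2 scale against the WT lines (SE 0.06, adjusted p = 1.16e-12 by edgeR), where MC011 differed by -0.05 (SE 0.05, adjusted p = 0.432). Col5a3 had 3.10 and 2.99 CPM in MC010, 11.6 and 10.6 in MC011, 15.9 and 13.0 in MC654, and 27.6 and 28.4 in MC659. It was called lower, with a log2 fold change of -1.58 (SE 0.53, adjusted p = 0.0462), but 6 of the 8 fits with 1 library left out lost the call, namely those without either library of MC010, MC654 or MC659 (adjusted p 0.0551 to 0.112).

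Type I collagen, the most abundant collagen of connective tissue, is made of 2 chains from Col1a1 and 1 from Col1a2. Col1a1 (chr11:94936224-94953042, plus strand) had 93.1 and 81.7 CPM in MC010, 475 and 405 in MC011, 300.3 and 251 in MC654, and 457 and 486 in MC659. Col1a2 (chr6:4504814-4541544, plus strand) had 802 and 757 CPM in MC010, 254 and 238 in MC011, 959 and 876 in MC654, and 1220.2 and 1270.3 in MC659. Against the WT lines, MC010 was at -2.04 on the log2 scale for Col1a1 (SE 0.09, adjusted p = 6.4e-11 by edgeR) and at -0.45 for Col1a2 (SE 0.05, adjusted p = 2.88e-07, short of the fold threshold). MC011 was at 0.29 for Col1a1 (SE 0.08, adjusted p = 0.00436, short of the fold threshold) and at -2.12 for Col1a2 (SE 0.05, adjusted p = 8.47e-15). The chain of type I that lay furthest below the WT lines was thus Col1a1 in MC010 and Col1a2 in MC011.

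Against MC011, MC010 had less Col1a1, with a log2 difference of -2.33 (SE 0.09, adjusted p = 7.46e-11 by edgeR) and more Col1a2, with a log2 difference of 1.66 (SE 0.05, adjusted p = 6.77e-13). The ratio of Col1a1 to Col1a2 counts per kilobase was 0.101 in MC010, 1.61 in MC011, 0.271 in MC654 and 0.342 in MC659, a span of 15.9 times between the lines of the IRF8 KO label. Between the labels neither chain was called, with log2 fold changes of -0.50 for Col1a1 (SE 0.59, adjusted p = 0.543) and -1.08 for Col1a2 (SE 0.43, adjusted p = 0.0817). Col3a1, whose product forms fibers together with type I, had 845 and 806 CPM in MC010, 1215.1 and 1216 in MC011, 887 and 820.2 in MC654, and 1179 and 1224 in MC659. Its order over the lines was not that of Col1a2, and the ratio of Col3a1 to Col1a2 per kilobase was 4.75 in MC011 against 0.894 to 1.02 in the other lines.

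**Figure D3:**
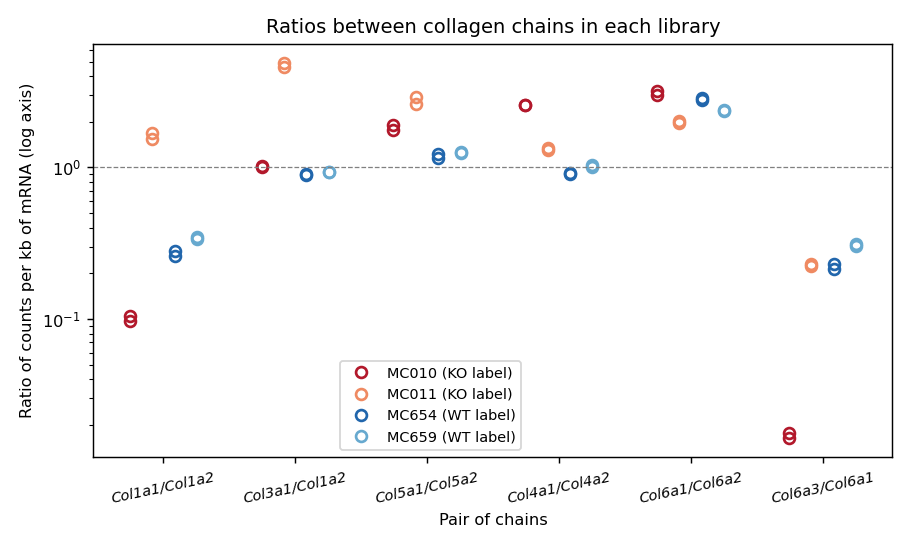
Ratios of counts per kilobase of mRNA between 6 pairs of chains on a log axis, 1 circle per library. The ratio of Col1a1 to Col1a2 lies at 0.101 in MC010 and 1.61 in MC011 with both WT lines between them, and the ratio of Col6a3 to Col6a1 is far lower in MC010 (0.0169) than in the other lines.

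Per kilobase of mRNA, the highest collagen level was that of Col3a1 in MC010 (148 CPM per kilobase) and in MC011 (218), and that of Col1a2 in MC654 (172) and in MC659 (233). In MC010 Col1a2 followed closely at 146, and in MC011 Col6a1 came second at 143. Col1a1, at 74.2 in MC011 and 46.5 in MC654, was at 14.7 CPM per kilobase in MC010, below Col6a1 (88.0), Col4a1 (86.4), Col16a1 (42.5), Col8a1 (34.4), Col4a2 (33.5), Col6a2 (28.3) and Col18a1 (25.2). These levels depend on the transcript taken for each gene, the one with the longest coding sequence.

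The cartilage chains Col2a1, Col11a1 and Col11a2 were low in all lines and highest in MC011. Col2a1, the chain of type II collagen, had 6 and 8 counts in MC010, 177 and 184 in MC011, 17 and 36 in MC654, and 35 and 18 in MC659. Col11a2, of type XI, had 0.787 and 0.476 CPM in MC010, 5.03 and 5.23 in MC011, 2.01 and 1.92 in MC654, and 2.06 and 1.98 in MC659. Col2a1, Col11a2 and Col6a3 lay on opposite sides of the WT lines in MC010 and MC011, past both thresholds in each. Such a pattern was found for 3 of 30 chains and for 2.75% of all genes. MC010 minus MC011 was -4.75 on the log2 scale for Col2a1 (SE 0.49, adjusted p = 5.94e-07 by edgeR) and -2.97 for Col11a2 (SE 0.21, adjusted p = 6.15e-09).

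Col11a1, the partner of Col11a2, had 193 and 186 counts in MC011 and 2 to 15 in the other libraries. Its log2 fold change between MC010 and MC011 was -5.06 (SE 0.53, adjusted p = 6.26e-07 by edgeR), and between the labels it was 3.16 (SE 1.25, adjusted p = 0.0801). Sox9, the transcription factor that turns on Col2a1 and Col11a2 in cartilage, had 34.2 and 33.9 CPM in MC010, 125 and 116 in MC011, 89.4 and 81.6 in MC654, and 69.7 and 65.8 in MC659. It too was lower in MC010 than in MC011, with a log2 difference of -1.83 (SE 0.06, adjusted p = 8.8e-13). The 4 chondrocyte markers in the table, Sox9 among them, summed to 34.3 CPM in MC010, 121 in MC011, 86.7 in MC654 and 70.0 in MC659. Nearly all of that sum was Sox9, since Acan, the proteoglycan of cartilage, had 0.0506 to 0.228 CPM in the IRF8 KO label and 0.553 to 2.28 in the WT label, and Matn3 and Comp were below 0.31. The part of these markers in the differences was not tested.

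Col12a1 (chr9:79598991-79718831, minus strand), a FACIT chain found on fibers of tendon and skin, had 73.2 and 78.2 CPM in MC010, 266 and 251 in MC011, 34.9 and 35.4 in MC654, and 45.9 and 44.4 in MC659. Both lines of the IRF8 KO label were above the WT label and MC011 was the higher. The log2 fold change was 2.06 (SE 0.46, adjusted p = 0.00927 by edgeR, with 0.120 without MC654 and 0.0888 without MC659). Col16a1, the other abundant FACIT chain, varied little, at 211 to 289 CPM in the IRF8 KO label and 192 to 226 in the WT label, with a log2 fold change of 0.28 (SE 0.11, adjusted p = 0.0870). Col20a1 and Col9a3 were below 2 CPM throughout and were not called between the labels, and both share exon bases with a neighbouring gene (79 with BX649560.1 and 234 with Tcfl5), so their counts are uncertain. Other chains share exon bases too, among them Col4a3 (563 with C430014B12Rik), Col6a4 (162 with Gm47575) and Col3a1 (141 with Gm47302).

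The transmembrane chains Col17a1, a protein of the hemidesmosome of skin, and Col23a1 were low but separated the labels. Col17a1 had 37 to 147 counts in the IRF8 KO label and 3 to 12 in the WT label, a log2 fold change of 3.52 (SE 0.57, adjusted p = 0.00208 by edgeR). Col23a1 had 17 and 20 counts in MC010, 300 and 252 in MC011, and 1 to 8 in the WT label, a log2 fold change of 4.98 (SE 1.18, adjusted p = 0.0121). The Col23a1 level was far higher in MC011 than in MC010, and the call was lost without MC654 (0.130) or MC659 (0.103). Col25a1, the remaining member of this class in the table, had 0.127 to 0.299 CPM against 0.247 to 0.422 and was not called (log2 fold change -0.60, SE 0.34, adjusted p = 0.210).

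Col7a1 and Col8a1 were abundant chains whose change between the labels stayed short of the fold threshold. Col7a1, the chain of the fibrils that anchor the epidermis, had 68.7 and 66.5 CPM in MC010, 64.9 and 62.1 in MC011, 102 and 89.8 in MC654, and 91.4 and 100.1 in MC659. Its libraries did not overlap between the labels, with a log2 fold change of -0.55 (SE 0.06, adjusted p = 0.000393 by edgeR). Against the WT lines, MC011 was called lower for Col7a1, at -0.593 on the log2 scale (SE 0.06, adjusted p = 1.77e-07 by edgeR). Col8a1, of the hexagonal network of vessel walls and the cornea, had 126 to 182 CPM in the IRF8 KO label and 124 to 162 in the WT label (log2 fold change 0.09, SE 0.15, adjusted p = 0.698). Col28a1 was low, at 0.175 to 0.747 CPM against 1.14 to 1.42, and was called lower, with a log2 fold change of -1.41 (SE 0.46, adjusted p = 0.0413). That call was lost in 5 of the 8 fits with 1 library left out, those without the second library of MC010 or either library of MC654 or MC659 (adjusted p 0.0734 to 0.0921).

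Among the chains under the filter, Col19a1 had 96 and 60 counts in MC011 and 0 or 1 in the other 6 libraries. Col8a2 had 38 and 45 counts in MC011 and 0 to 8 elsewhere, and Col14a1 had 65 and 60 in MC011 and 0 to 17 elsewhere. Col22a1 had 0 to 22 counts in all 8 libraries. The floor of 3 counts corresponded to 0.0262 to 0.0408 CPM, and levels below it were not detectable at this depth. Col24a1, which passed the filter, had 0.122 to 0.481 CPM and no call between the labels (log2 fold change 0.35, SE 0.41, adjusted p = 0.544).

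Within the IRF8 KO label, 3 of the 30 chains were higher and 17 lower in MC010 than in MC011, where 15.7% and 16% of all genes were. The 3 higher were Col18a1, Col1a2 and Col6a4. Among the 17 lower, the differences ran from -0.70 for Col6a1 to -5.06 for Col11a1 on the log2 scale, and the median over the 30 chains was -0.92 where that over all genes was 0.00. Within the WT label, 0 chains were higher and 6 lower in MC654 than in MC659 by edgeR, where 1.24% and 3.71% of all genes were (4.95% in either direction), and 3 chains were higher and 11 lower at an unadjusted p under 0.05, where 11.1% and 15.3% of all genes were. DESeq2 also called 0 higher. The 6 were Col1a1 (-0.77), Col5a3 (-0.96), Col6a1 (-0.80), Col6a2 (-1.05), and Col6a3 (-1.27), each a log2 difference, and Col15a1, with 0 and 3 counts in MC654 against 12 and 14 in MC659.

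Set one at a time against the WT lines, MC010 had 12 chains higher and 9 lower, with 19.7% and 17.4% of all genes called, and MC011 had 16 chains higher and 6 lower, with 17.3% and 13.4%. These comparisons share the WT libraries. In MC010 the fibrillar chains made up 6 of the 9 that were lower, and in MC011 the 5 type VI chains in the table were all higher. The 6 that were lower in MC011 were 3 when its second library was left out.

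**Figure D4:**
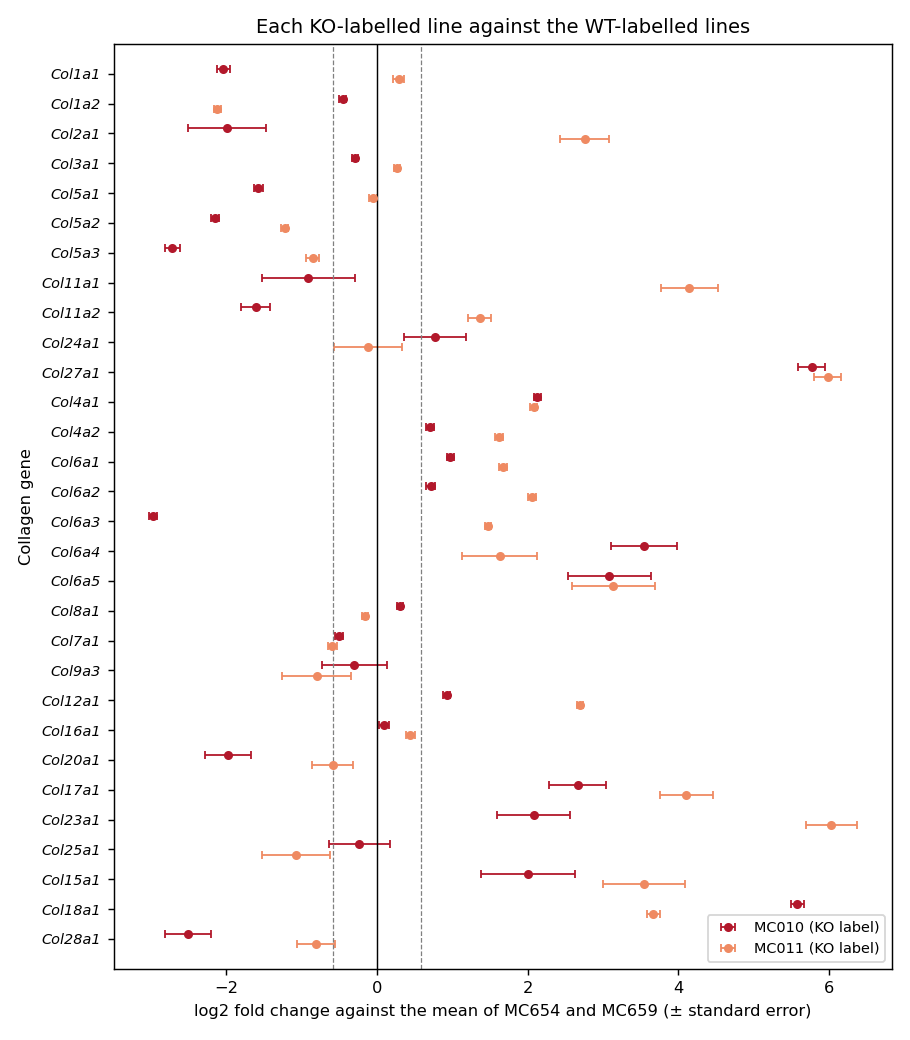
Log2 fold change of MC010 and of MC011 against the mean of MC654 and MC659 for the 30 collagen chains tested, with standard errors from edgeR, and dashed lines at 0.59 in each direction. Points of the 2 lines coincide at Col4a1 and Col27a1. At Col6a3, Col2a1 and Col11a2 they lie on opposite sides of 0, past both thresholds in each line. Other chains, such as Col11a1 and Col1a1, also have points on opposite sides of 0, but not past both thresholds in each line.

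Collagen chains are hydroxylated, glycosylated, folded, cut and cross-linked by enzymes and chaperones, of which 33 were listed, 32 were in the table and 31 were tested. Between the labels 6 were higher and 4 lower, where 13.7% and 8.72% of all genes were. The higher group held Plod1 (lysyl hydroxylase), which had 155 and 147 CPM in MC010, 122 and 120.1 in MC011, and 22.7 to 29.9 in the WT label. Its log2 fold change was 2.34 (SE 0.12, adjusted p = 1.03e-05 by edgeR). Plod2, the lysyl hydroxylase of the telopeptides, went the other way, with 22.4 and 23.3 CPM in MC010, 46.9 and 47.3 in MC011, and 98.5 to 105 in the WT label (log2 fold change -1.54, SE 0.27, adjusted p = 0.00288). Plod1 and Plod2 thus changed in opposite directions, and the labels did not overlap for either. The remaining lysyl hydroxylase of the list, Plod3, was named after its values were seen. It had 93.0 to 140 CPM against 141 to 159 and was not called (log2 fold change -0.34, SE 0.13, adjusted p = 0.0792 by edgeR).

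The cross-linking oxidases also parted. Lox, the founding member, had 197 and 208 CPM in MC010, 537 and 542 in MC011, 753 and 788 in MC654, and 1126 and 1056 in MC659, and was called lower, with a log2 fold change of -1.33 (SE 0.38, adjusted p = 0.0255 by edgeR). Loxl2 had 23.9 and 26.2 CPM in MC010, 77.9 and 76.8 in MC011, and 4.40 to 8.59 in the WT label, and was higher by 2.97 (SE 0.49, adjusted p = 0.00239). Adamts2, which cuts the N-terminal propeptide, and P3h2, a prolyl 3-hydroxylase that acts on type IV collagen, were higher by 3.13 (SE 0.67, adjusted p = 0.00773) and 3.09 (SE 0.54, adjusted p = 0.00314) on the log2 scale. Loxl4 (0.66), Fkbp14 (0.74), P4ha1 (-1.02) and P3h3 (-0.78) complete the 10 that were called, and were named after their values were seen.

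The core folding proteins Serpinh1 and P4hb moved little between the labels. Serpinh1 (HSP47), the chaperone particular to procollagen, had 577 and 512 CPM in MC010, 861 and 811 in MC011, 804 and 728 in MC654, and 715 and 759 in MC659 (log2 fold change -0.12, SE 0.17, adjusted p = 0.598 by edgeR). P4hb, a subunit of prolyl 4-hydroxylase, had 909 to 1129.7 CPM in the IRF8 KO label and 784 to 838 in the WT label, a difference of 0.32 (SE 0.08, adjusted p = 0.0192) that stayed short of the fold threshold. Between MC010 and MC011, 1 of the 31 genes was higher in MC010 and 15 were lower, where 15.7% and 16% of all genes were. The single higher gene was Tll1, a procollagen C-proteinase, with 3.01 and 2.41 CPM in MC010 and 0.0415 to 0.222 in the other 6 libraries. Adamts3 was among the lower ones (-2.31, SE 0.53, adjusted p = 0.00141), as were Serpinh1 (-0.62, SE 0.06, adjusted p = 3.48e-07) and Lox (-1.41, SE 0.05, adjusted p = 1.07e-12).

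**Figure D5:**
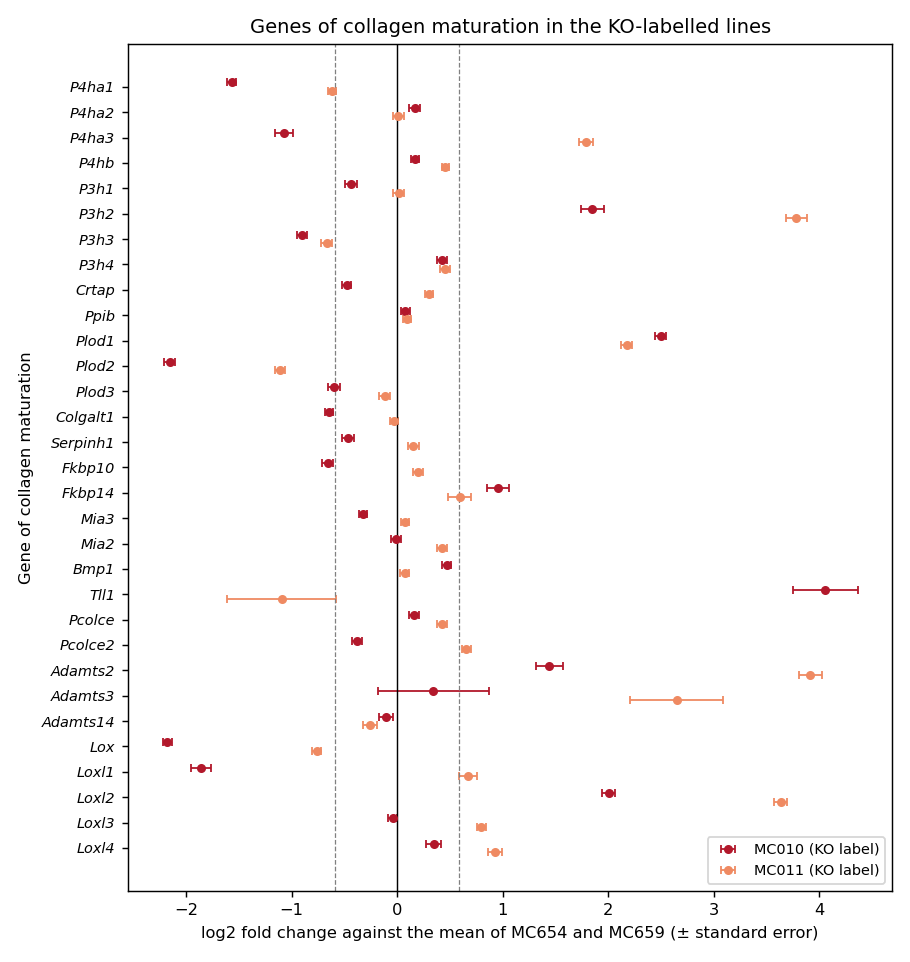
Log2 fold change of MC010 and MC011 against the mean of the WT lines for the 31 genes of collagen maturation that were tested, with standard errors from edgeR. Plod1 lies to the right and Plod2 and Lox to the left of 0 in both lines, and Tll1 is far to the right in MC010 alone.

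Cells bind collagen through integrins and the discoidin domain receptors. Of 11 listed receptors, 9 were tested, and 5 were higher and 1 lower in the IRF8 KO label, where 13.7% and 8.72% of all genes were. The lower one was Itgb1, the beta chain that all collagen-binding integrins share, with 741 to 901 CPM against 1431 to 1548 (log2 fold change -0.84, SE 0.07, adjusted p = 0.000109 by edgeR). The higher ones included Ddr1, a receptor tyrosine kinase for collagen, with 73.3 to 105 CPM against 42.9 to 54.8 (0.82, SE 0.13, adjusted p = 0.00200). Itga1 (2.56), Itga10 (0.65) and Adgrg1 (2.82) were higher from levels under 5 CPM in all libraries. Itga2 had 3.86 and 3.35 CPM in MC010 and 0.0471 to 0.207 elsewhere, so that its log2 fold change of 4.57 (SE 1.25, adjusted p = 0.0222) came from the level in MC010.

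Of 14 listed transcription factors of collagen genes, 13 were tested, and 1 was higher and 1 lower between the labels, where 13.7% and 8.72% of all genes were. Smad3, the mediator of TGF-beta signals, had 154 to 174 CPM against 63.6 to 67.8, with a log2 fold change of 1.32 (SE 0.06, adjusted p = 4.35e-06 by edgeR). Egr1, an immediate early gene, had 65.1 and 63.0 CPM in MC010, 26.6 and 26.4 in MC011, and 349.8 to 374 in the WT label, a log2 fold change of -3.01 (SE 0.34, adjusted p = 0.000389). Neither gene's libraries overlapped between the labels. Between MC010 and MC011, 3 were higher in MC010 (Egr1 by 1.27, Runx2 by 1.00 and Sox5 by 2.28 on the log2 scale). Another 3 were lower (Sox9, Mkx at -2.33 and Sp7 at -2.70), where 15.7% and 16% of all genes were higher and lower. Sp7 had only 5 and 1 counts in MC010 and 29 and 9 in MC011, and 1 count is below the floor of 3.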

How the data were processed

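RNA of 4 MCA-induced mouse tumor lines was sequenced by a stranded mRNA protocol, per the labels. The authors aligned the reads to mm10 (GRCm38.p6) and counted them per gene. The submitters' processing notes list STAR 2.7.3a, HTSeq 0.11.2 and DESeq2, and the counter's strand setting is not given in the sources used here. The study's methods name other versions of STAR and HTSeq, and which versions made the counts is not known. The deposited table holds a raw count per gene and library, which was analysed, and a signal, the count scaled by a size factor. The deposited log2 fold changes, scores, p-values and adjusted p-values of the authors' own comparison were not used. Every gene in it has at least 20 counts in all.

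Counts were compared with edgeR 4.0.16 (R 4.3.3): filterByExpr with a minimum count of 10, TMM, robust quasi-likelihood fits and Benjamini-Hochberg adjustment over 15153 genes. One fit compared the 4 libraries of each label, another had 1 group per line. Standard errors are the log2 fold change over the square root of F. Calls needed an adjusted p under 0.05 and a log2 fold change beyond 0.59 in either direction. The fits were tested on simulated counts first. These were drawn independently for each library, so they do not show how the label fit behaves when libraries of a line are alike.

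Alternatives were DESeq2 1.42.0, no filter, upper-quartile scaling, the library number as a replicate block, no fold threshold, summed lines, limma-voom 3.58.1 with the line as a random block, and each library or line left out. Libraries of a line differed by more than sampling noise (chi-square per degree of freedom of at least 7.60). All collagen rows could be named. Of the maturation, receptor and transcription factor lists, up to 8 genes each could be named, those with the largest change between the labels among genes called there or between MC010 and MC011, besides Serpinh1, P4hb and Lox. The members and lists were chosen with earlier results of these data known. Gene coordinates, the same in GENCODE M21 for all 36 genes, are on GRCm38, and upstream sequences of 28 of the 36 were matched by symbol. Floors of 3 counts and intervals cover counting error only.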

Additional observations from a re-analysis of the deposited data

Results flagged for a closer look

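In the 4 libraries of the IRF8 KO label, the first library of MC010 had 589.6 CPM of Col4a1, set apart from the other 3 by more than Dixon's test allows at the 95% level. It was 1 of 60 groups of 4 libraries tested, and chance flags about 1 in 20. The value lies on the side away from the WT label and the other 3 libraries are at 552 to 555 CPM.

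MC010 and MC011 went past both thresholds in opposite directions from the WT lines for Col2a1 (MC010 minus MC011 -4.75 on the log2 scale), Col11a2 (-2.97) and Col6a3 (-4.45), and each difference passed edgeR's test between the lines.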

How the results depend on the processing

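Over the libraries, 11 chains were higher and 3 lower between the labels. Libraries with the same number in different lines deviated together little or not at all (correlations of -0.12 to 0.19 over 6 pairs of lines). Correlations over all genes cannot exclude a shared batch, and the main fit did not use the number as a pairing. With lines summed the counts were 0 and 0, in limma-voom 6 were higher, DESeq2 gave 5 lower, and the replicate block gave 10 higher and 1 lower, all 11 among the 14. Without MC010, 17 were higher; without MC011, 9 lower; without MC654, 5 higher and 1 lower; without MC659, 6 higher and 1 lower. With 1 library left out, 9 to 12 were higher and 1 to 4 lower. Of the maturation genes, 6 higher and 4 lower between the labels became 0 and 0 with lines summed, 3 higher in limma-voom, 10 higher without MC010, 9 lower without MC011, 1 higher and 2 lower without MC654, and 2 lower without MC659. With no fold threshold, 5 maturation genes were higher and 23 lower in MC010 than in MC011, and 3 chains were higher in MC654 than in MC659. With no filter, 5 chains were higher in MC010 than in MC011. The chains lower in MC011 than in the WT lines were 3 to 7 with 1 library left out. The comparisons of MC010 or MC011 alone with the WT lines, and of the maturation genes between MC010 and MC011, were put through these alternatives by a choice made after seeing the data. The cause was not tested, though a line left out also changes how many lines and genes are compared.

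Log2 fold changes between the labels turned sign for 8 chains, none called: without MC011 for Col11a1 (-0.94), Col11a2 (-1.64), Col2a1 (-1.97) and Col6a3 (-3.12), in limma-voom for Col11a2 (-0.078) and Col6a3 (-0.77), without MC010 for Col1a1 (0.22), Col24a1 (-0.17), Col3a1 (0.22) and Col8a1 (-0.19), without MC654 for Col6a3 (-0.10), and without MC659 for Col3a1 (0.25) and Col8a1 (-0.092). With single libraries left out, Col3a1 ran from -0.11 to 0.081, Col6a3 from -0.18 to 0.79, and Col8a1 from -0.021 to 0.16. Of the 14 called chains, Col4a1, Col27a1, Col18a1, Col17a1 and Col5a2 were called without any single line. Depth limits the 6 chains under the filter and those below about 1 CPM.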
